A study of Homo sapiens with 22 samples.

Results

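The untreated step compared 2 libraries taken on day 16 of culture (UT day 16) with 2 taken on day 14 (UT day 14), across all genes of the count table. The 4 libraries were chosen by arm and day in the labels, with no measured value, and belong to a series of 22. All 22 held polyA RNA of haematopoietic progenitor cells differentiated from the established human embryonic stem cell line H1, and the 4 compared here had no doxycycline. In the other arm (DOX), the same cells received doxycycline, which switched on ectopic MYC, a transcription factor of cell growth. DOX day 16 and DOX day 14, also with 2 libraries each, served for the comparison between arms, and DOX day 20 for a later interval of that arm. All titles carry the same line name and all libraries are labelled as 1 batch. The labels do not say whether replicates came from separate cultures, and p-values therefore reflect the spread among these libraries alone, possibly of technical origin. In bulk RNA, fewer cells of a type and less RNA per cell cannot be told apart.

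Blood progenitors from pluripotent stem cells can give rise to red cells, platelet-forming megakaryocytes and myeloid cells such as eosinophils, neutrophils and mast cells. Each lineage is known by its own products, such as globins in red cells, chemokines stored in platelet granules, and the basic granule proteins of eosinophils. The mitochondrial genome encodes a small set of respiratory chain subunits and its own ribosomal RNAs, while the nucleus encodes all other mitochondrial proteins.

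In these data, the 13 mRNAs and 2 ribosomal RNAs encoded by mitochondria were 5.49-fold to 11-fold higher in the UT day 16 libraries, and transcripts for nuclear-encoded respiratory chain subunits were lower. Megakaryocyte, platelet and erythroid genes were lower, as were glycolysis and hypoxia-responsive genes. Eosinophil granule and receptor genes were higher relative to the bulk of genes. Mast cell and basophil genes and neutrophil primary granule genes moved in both directions, and later neutrophil genes were more often higher than lower. Of 20115 genes tested with edgeR's quasi-likelihood test, 5908 (29.4%) had an adjusted p under 0.05 by the Benjamini-Hochberg method and are termed called. These were 2771 higher (13.8%) and 3137 lower (15.6%) genes, and 1288 (6.4%) and 1215 (6.04%) of them reached a 2-fold change. The counts of called members given below for each gene list are to be read against the shares of 13.8% and 15.6%. With UT day 16 replicate 2 left out, 3900 genes were called, of which 1835 were higher and 2065 lower, and with UT day 14 replicate 2 left out, 1846 were higher. The values of the UT day 16 and UT day 14 libraries did not overlap for 12669 genes, which is 63% of those tested.

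Total estimated counts were 32077941 and 35007951 in the UT day 16 libraries, against 39654413 and 37858046 in the UT day 14 libraries. Without genes whose names begin with MT-, they were 14142352 and 16280452 in the UT day 16 libraries, against 32733233 and 34089290 in the UT day 14 libraries. The number of genes that reach a given count depends on this depth. At least 10 counts were reached by 15691 and 16378 genes in the UT day 16 libraries, against 17968 and 18113 in the UT day 14 libraries. Pseudogenes took 3.35% and 3.56% of the counts without MT- genes in the UT day 16 libraries, against 1.32% and 1.37% in the UT day 14 libraries. Levels of single genes are given below as counts divided by library size after scaling by the trimmed mean of M values (TMM), in the unit CPM, and log2 fold changes carry their standard error (SE). MYC itself was at 59.8 and 46.8 CPM in UT day 16 libraries, against 88.7 and 58.0 CPM in UT day 14 libraries, and these values overlapped (log2 fold change -0.46, SE 0.25, adjusted p = 0.19). It was called lower without the filter on low counts (-0.49, adjusted p = 0.0114) and with library sizes alone as the scaling (-1.58).

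The UT day 16 libraries stood apart in 2 other respects. The first concerns 6 genes with 0 counts in both UT day 16 libraries and at least 5 CPM in both UT day 14 libraries. Of these, 4 were under 1 CPM in every library of UT days 16, 18 and 20 and DOX days 18 and 20, and at 1 CPM or above in every other library. They include the readthrough locus HNRNPUL2-BSCL2, at 40 and 34.1 CPM in the UT day 14 libraries, which was at least 293-fold lower in UT day 16 libraries with a floor of 3 counts per library. TBC1D3D, a member of a family of near-identical copies, was at 8.79 and 8.96 CPM in the UT day 14 libraries and at least 70.2-fold lower in UT day 16 libraries. The opposite pattern, 0 counts in both UT day 14 libraries and at least 5 CPM in both UT day 16 libraries, was seen for 3 genes. The readthrough locus ZFP91-CNTF was near that pattern, with 22.8 and 58.3 CPM in UT day 16 libraries, against 0.0334 and 0.0835 CPM in UT day 14 libraries. Day and this split of the libraries cannot be told apart in the untreated step, since both UT day 16 libraries lie on one side and both UT day 14 libraries on the other. Both DOX libraries of days 14 and 16 lie on the UT day 14 side, so the comparison between arms has no value within the split either.

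The second concerns UT day 16 replicate 2, in which connective tissue genes were high. COL3A1, a fibrillar collagen, was at 1.20 and 295 CPM in UT day 16 replicates 1 and 2, against 3.24 and 4.27 CPM in the UT day 14 libraries. COL1A1 was at 1.77 and 131 CPM in UT day 16 libraries, against 2.34 and 2.15 CPM in UT day 14 libraries, and the matrix protein FN1 at 1.51 and 231 CPM, against 3.98 and 6.31 CPM. These values overlapped between the days, because UT day 16 replicate 1 lay below both UT day 14 libraries. Over the 20 fibroblast and stromal genes tested, summed levels were 39.1 and 922 CPM in the UT day 16 libraries, against 66.4 and 63.0 CPM in the UT day 14 libraries, and DCN and POSTN had 0 counts in UT day 16 replicate 1. All 4 libraries together called 9 of the 20 higher and 0 lower. Without UT day 16 replicate 2, 0 were called higher and 4 lower, and COL3A1, COL1A1 and FN1 changed sign to log2 fold changes of -1.66, -0.35 and -1.78. The calls of these 3 genes were also lost without either UT day 14 library. The number of the 20 called higher was 15 without UT day 16 replicate 1, 1 without UT day 14 replicate 1 and 4 without UT day 14 replicate 2. In all, 871 genes were over 4-fold higher in UT day 16 replicate 2 than in replicate 1 and 368 in the opposite direction, against 196 and 187 between the UT day 14 replicates. These numbers cover all 20115 genes tested at any level, and depth without MT- genes was lower in UT day 16 libraries. Chi-square per degree of freedom between replicates was 33.5 for UT day 16 and 100 for UT day 14, so the measures do not rank the days alike.

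**Figure D1:**
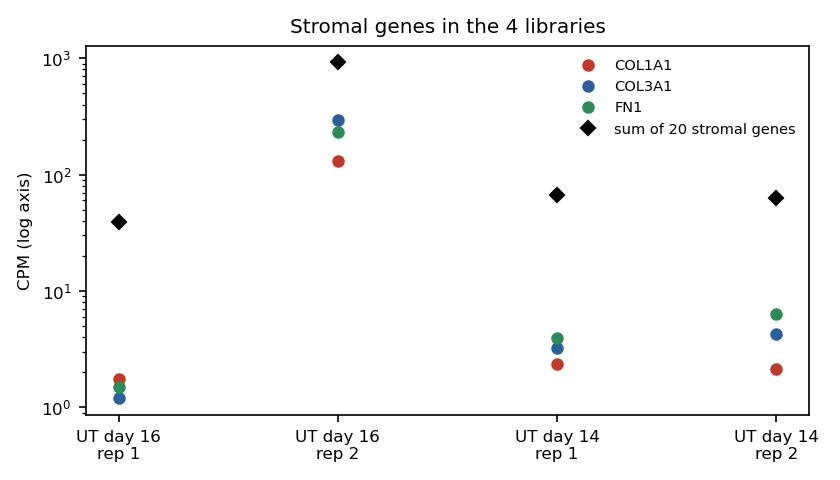
Levels of COL1A1, COL3A1 and FN1 and the sum over 20 stromal genes in each of the 4 libraries, in CPM on a log axis, with UT day 16 left of UT day 14. The sum is 922 CPM in UT day 16 replicate 2 and between 39.1 and 66.4 CPM in the other libraries.

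The labelled cell type was checked against its markers. CD34, a surface protein of blood progenitors, was at 16.8 and 12.6 CPM in UT day 16 libraries, against 34.3 and 33.5 CPM in UT day 14 libraries (log2 fold change -1.21, SE 0.31, adjusted p = 0.0074). This call was lost without UT day 16 replicate 2 (log2 fold change -1.02, adjusted p = 0.083). KIT, the receptor for stem cell factor, fell to 8.51 and 6.70 CPM in UT day 16 libraries, against 24.4 and 25.5 CPM in UT day 14 libraries (log2 fold change -1.72, SE 0.24, adjusted p = 2.6e-05). MEIS1, a homeobox factor of stem and progenitor cells, was at 66.4 and 65.8 CPM in UT day 16 libraries, against 150.4 and 153 CPM in UT day 14 libraries (log2 fold change -1.20). CD34, KIT and MEIS1 were thus detected on both days, at lower levels in the UT day 16 libraries. The stem and progenitor list as a whole had summed levels of 1222 and 1270 CPM in UT day 16 libraries, against 1292 and 1343 CPM in UT day 14 libraries. Of its tested genes, 10.3% were higher and 20.7% lower, against 13.8% and 15.6% over all genes. Of the 29 stem and progenitor genes tested, 3 were higher and 6 lower, with a median log2 fold change of -0.35, against -0.03 over all genes, and 0 were higher without UT day 14 replicate 1 and 1 without UT day 16 replicate 2. Eosinophil genes had summed levels of 19460 and 17570 CPM in UT day 16 libraries, against 9605 and 9648 CPM in UT day 14 libraries, although the label names progenitors only.

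Genes whose names begin with MT-, which lie on the mitochondrial chromosome, took 55.9% and 53.5% of all counts in the UT day 16 libraries, against 17.5% and 9.96% in the UT day 14 libraries. The means were 54.7% ± 1.71 in UT day 16 and 13.7% ± 5.30 in UT day 14 libraries (SD, n = 2 each). The difference of 41.0 percentage points exceeded the spread within each day, and an exact two-sided permutation test gave p = 0.333, the smallest that 2 against 2 libraries allow. Set against the nuclear counts, MT- counts were 1.21 times as many in UT day 16 and 0.161 times as many in UT day 14 libraries. In the UT arm the share was 9.34% and 8.51% on day 10, 10.2% and 10.9% on day 12, 62.8% and 56.6% on day 18, and 72.5% and 72.9% on day 20. The interval between days 14 and 16 thus held the widest gap between neighbouring days of this arm.

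**Figure D2:**
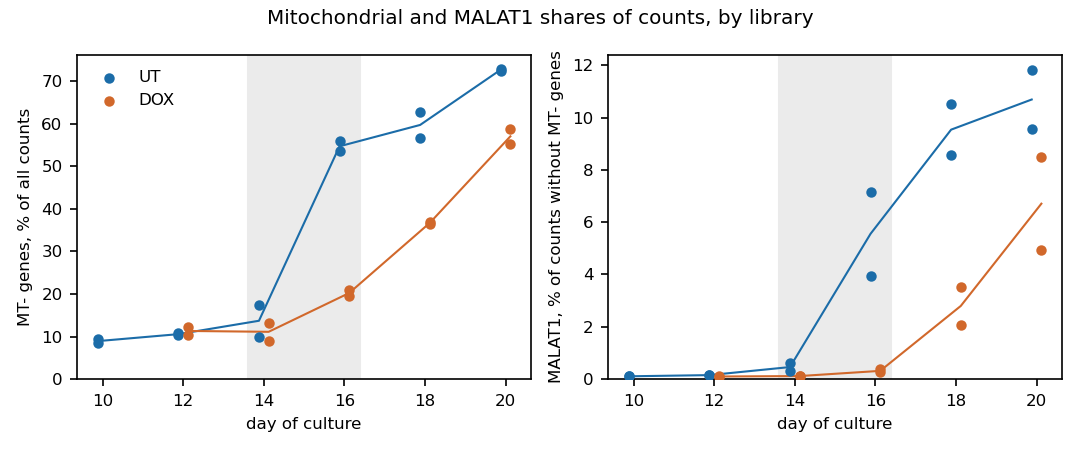
Percent of all counts from MT- genes (left) and percent of the counts without MT- genes from MALAT1 (right), by day of culture, with 1 point per library, lines through the group means, and the interval between days 14 and 16 shaded. The MT- share is 55.9% and 53.5% in UT day 16 libraries, against 17.5% and 9.96% in UT day 14 libraries, and 21% and 19.5% in DOX day 16 libraries.

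All 13 mitochondrially encoded mRNAs and both ribosomal RNAs were called higher. Their UT day 16 and UT day 14 values did not overlap, which also held for 63% of all genes tested. MT-CO1, the catalytic subunit of cytochrome c oxidase, was at 163025 and 145169 CPM in UT day 16 libraries, against 24536 and 11836 CPM in UT day 14 libraries (log2 fold change 3.08, SE 0.26, adjusted p = 1.5e-07). MT-ND5, a subunit of complex I, had the largest fold of the 13, with 47222 and 43743 CPM in UT day 16 libraries, against 5646 and 2591 CPM in UT day 14 libraries (log2 fold change 3.47, SE 0.30). MT-ND6, the only mRNA of the set encoded on the light strand, had the smallest, with 1045 and 1500.2 CPM in UT day 16 libraries, against 237 and 227 CPM in UT day 14 libraries (log2 fold change 2.46, SE 0.21, adjusted p = 2e-07). The median of the 13 was 3.12, against -0.03 over all genes, and stayed between 2.73 and 3.69 with any 1 of the 4 libraries left out. With library sizes alone as the scaling, the median was 2.00 and all 13 were still called higher.

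The other mRNAs lay between these bounds. The log2 fold changes were 3.34 for MT-ND1, 3.34 for MT-ND2, 3.06 for MT-ND3, 3.07 for MT-ND4 and 3.27 for MT-ND4L, which encode further complex I subunits. They were 3.35 for MT-CYB of complex III, 2.95 for MT-CO2 and 3.03 for MT-CO3 of complex IV, and 3.12 for MT-ATP6 and 3.35 for MT-ATP8 of ATP synthase. The ribosomal RNAs MT-RNR1 and MT-RNR2 carry no ordinary polyA tail, and their log2 fold changes were 2.84 and 2.94. MT-RNR2 was at 99899.7 and 100249 CPM in UT day 16 libraries, against 16027 and 10052 CPM in UT day 14 libraries. Within the counts of these 15 genes together with the other MT- genes, the shares of 4 genes are given. MT-ND6 made up 0.131% and 0.201% of MT- counts in UT day 16 libraries, against 0.205% and 0.360% in UT day 14 libraries. MT-CO1 made up 20.5% and 19.4% of MT- counts in UT day 16 libraries, against 21.2% and 18.8% in UT day 14 libraries. MT-ND5 made up 5.94% and 5.85% in UT day 16 libraries, against 4.88% and 4.12% in UT day 14 libraries. MT-RNR2 made up 12.6% and 13.4% in UT day 16 libraries, against 13.9% and 16.0% in UT day 14 libraries.

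Because the MT- share moved so far, the comparison was repeated with the 37 MT- genes removed before filtering and scaling. It then called 5821 of 21134 genes (27.5%), with 2658 higher (12.6%) and 3163 lower (15%). Among 20001 genes in both fits, 2630 were higher in both and 3128 were lower in both, and 0 had opposite calls. A further 124 genes were higher only with MT- genes included and 5 were lower only with them included. Fold changes of nuclear genes moved by a median of 0.0106 on the log2 scale. The scaling mattered more than the removal. TMM factors were 0.703 and 0.716 in UT day 16 libraries, against 1.51 and 1.58 in UT day 14 libraries. With library sizes alone and MT- genes included, the median of all genes was -1.15 and 12425 genes were called, 351 higher and 12074 lower. With MT- genes removed and library sizes alone, the median was -0.20 and 1772 genes were called higher. With library sizes alone, EPX, RNASE2, IL5RA, SIGLEC8, HDC, TPSB2, LTF, CEBPB, KLF2, TOP2A, CCL22, HSP90AA1 and IL7R, all described below as higher, lost their calls, with log2 fold changes between 0.01 and 0.99. That setting kept the MT- genes in the library sizes. With MT- genes removed and library sizes alone, all 113 results of named genes outside the MT- genes kept their sign and call status. Among them were PRG2 (0.83), CYBB (0.6) and CPT1A (0.93). The fold changes below are relative to the TMM scale, on which the median of all genes was -0.03.

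Nuclear genes for oxidative phosphorylation went the other way. Of 29 subunits tested, 0 were higher and 20 lower, with a median of -0.74. At least 15 were called lower with any 1 of the 4 libraries left out. SDHD and SDHB, subunits of complex II, which is encoded by the nucleus alone, had log2 fold changes of -1.35 and -1.25. SDHB was at 25.3 and 20.0 CPM in UT day 16 libraries, against 47.1 and 60.4 CPM in UT day 14 libraries. ATP5F1A, the alpha subunit of ATP synthase, was at 211 and 196 CPM in UT day 16 libraries, against 372 and 380.0 CPM in UT day 14 libraries (log2 fold change -0.89).

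Of 28 mitochondrial ribosomal proteins, 3 were higher and 8 lower, with a median of -0.20, and without UT day 14 replicate 2 these were 1 and 5. MRPL13 was at 11.2 and 9.62 CPM in UT day 16 libraries, against 23.2 and 26.2 CPM in UT day 14 libraries (log2 fold change -1.25), and MRPL3 had a log2 fold change of -0.83. Among 18 genes for replication and transcription of mitochondrial DNA, 2 were higher and 3 lower, with a median of -0.07. These are 11.1% and 16.7%, against 13.8% and 15.6% over all genes. SSBP1, which binds single-stranded mitochondrial DNA, was at 47.1 and 43.3 CPM in UT day 16 libraries, against 83.0 and 111 CPM in UT day 14 libraries (log2 fold change -1.10). TFB2M, a mitochondrial transcription factor, was at 1.24 and 1.88 CPM in UT day 16 libraries, against 4.98 and 3.82 CPM in UT day 14 libraries (log2 fold change -1.49). TOP1MT, the mitochondrial topoisomerase, was higher, with 86.4 and 98.4 CPM in UT day 16 libraries, against 45.8 and 52.6 CPM in UT day 14 libraries (log2 fold change 0.91, but -0.21 with library sizes alone).

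**Figure D3:**
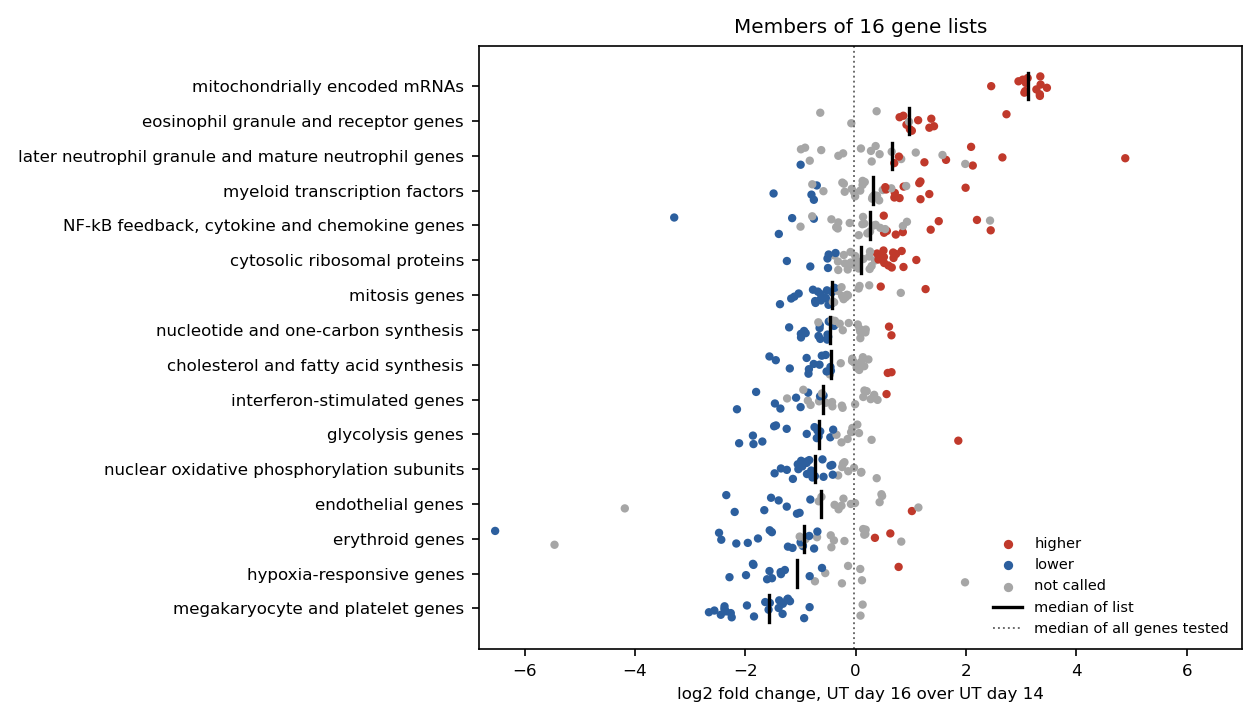
Log2 fold changes, UT day 16 over UT day 14, of the members of 16 gene lists, with 1 point per gene coloured by its call, the median of each list as a bar and the median of all genes tested as a dotted line. Mitochondrially encoded mRNAs have a median of 3.12 at the top and megakaryocyte and platelet genes a median of -1.57 at the bottom.

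Megakaryocyte and platelet genes had the most uniform fall of the blood lineages listed. Of 24 genes tested, 0 were higher and 22 lower, with a median of -1.57, and between 20 and 22 were lower with any 1 of the 4 libraries left out. Their summed levels were 2102 and 1942 CPM in UT day 16 libraries, against 6365 and 6602 CPM in UT day 14 libraries. PF4, platelet factor 4, a chemokine of platelet granules with the near-identical copy PF4V1, fell to 124 and 92.5 CPM in UT day 16 libraries, against 649 and 716 CPM in UT day 14 libraries (log2 fold change -2.66, SE 0.22, adjusted p = 2e-07). PF4V1 was at 3.50 and 2.39 CPM in UT day 16 libraries, against 26.7 and 32.2 CPM in UT day 14 libraries (log2 fold change -3.32), and reads shared by the 2 copies make their split uncertain. Neither gene had overlapping values between the days, as was the case for 63% of all genes tested.

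PPBP, the precursor of platelet basic protein, was at 221 and 230.1 CPM in UT day 16 libraries, against 908 and 1399 CPM in UT day 14 libraries (log2 fold change -2.35, SE 0.20, adjusted p = 2e-07). The platelet surface receptor CLEC1B, which was picked after its values were seen, was at 119.6 and 122 CPM in UT day 16 libraries, against 254 and 316 CPM in UT day 14 libraries (log2 fold change -1.24, SE 0.16). THBS1, a matrix protein of platelet alpha granules, had a log2 fold change of -2.38, GP5, a subunit of the receptor for von Willebrand factor, one of -2.44, and MMRN1, a carrier of factor V in platelets, one of -2.38. CD9, a tetraspanin of the platelet surface, was at 13.2 and 13.7 CPM in UT day 16 libraries, against 65.5 and 82.9 CPM in UT day 14 libraries (log2 fold change -2.47).

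Erythroid genes fell less uniformly. Of 32 tested, 2 were higher and 16 lower, and 1 was higher with any 1 of the 4 libraries left out. The median was -0.93, or -0.88 with the members at 0 counts in a group set to the bound that 3 counts give. HBG2, fetal gamma globin, was at 154 and 138 CPM in UT day 16 libraries, against 590.5 and 720.3 CPM in UT day 14 libraries (log2 fold change -2.16, SE 0.31, adjusted p = 9e-05), and its split from the near-identical HBG1 is uncertain. HBE1, embryonic epsilon globin, had a log2 fold change of -1.95. RHAG, the Rh-associated glycoprotein of the red cell membrane, was at 6.65 and 5.39 CPM in UT day 16 libraries, against 33.7 and 33.2 CPM in UT day 14 libraries (log2 fold change -2.48, SE 0.19, adjusted p = 4.5e-08). HEMGN, a nuclear factor of erythroid cells, had a log2 fold change of -2.44. GYPB, a glycophorin of the red cell surface with near-identical copies and thus an uncertain count, was picked after its values were seen. It was at 2.75 and 2.79 CPM in UT day 16 libraries, against 9.74 and 9.18 CPM in UT day 14 libraries (log2 fold change -1.77). SLC40A1, the iron exporter ferroportin, was at 77.1 and 59.5 CPM in UT day 16 libraries, against 197 and 196 CPM in UT day 14 libraries (log2 fold change -1.53).

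Promoters of 3 genes that fell are shown because they hold the hexamer AGATAA, a form of the motif bound by GATA factors. Whether these factors had a part in the fall was not tested. The sequences are from RefSeq (GRCh38.p14) and run 5′ to 3′ on the minus strand, from 250 bases before to 50 bases after the start of the gene. They lie at chr4:73988141-73988440 for PPBP, chr12:9999072-9999371 for CLEC1B and chr4:144019331-144019630 for GYPB. Capitals mark AGATAA or its reverse complement TTATCT.
PPBP: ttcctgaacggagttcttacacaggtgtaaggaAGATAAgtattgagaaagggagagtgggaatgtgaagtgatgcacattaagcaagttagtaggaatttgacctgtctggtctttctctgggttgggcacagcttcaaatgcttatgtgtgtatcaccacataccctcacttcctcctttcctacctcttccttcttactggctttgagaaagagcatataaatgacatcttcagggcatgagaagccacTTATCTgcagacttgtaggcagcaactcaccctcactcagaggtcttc
CLEC1B: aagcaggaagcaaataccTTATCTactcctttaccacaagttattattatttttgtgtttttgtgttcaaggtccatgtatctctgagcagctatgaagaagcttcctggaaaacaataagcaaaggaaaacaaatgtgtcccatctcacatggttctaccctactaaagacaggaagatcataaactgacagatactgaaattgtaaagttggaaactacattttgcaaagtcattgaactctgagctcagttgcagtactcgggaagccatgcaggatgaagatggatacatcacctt
GYPB: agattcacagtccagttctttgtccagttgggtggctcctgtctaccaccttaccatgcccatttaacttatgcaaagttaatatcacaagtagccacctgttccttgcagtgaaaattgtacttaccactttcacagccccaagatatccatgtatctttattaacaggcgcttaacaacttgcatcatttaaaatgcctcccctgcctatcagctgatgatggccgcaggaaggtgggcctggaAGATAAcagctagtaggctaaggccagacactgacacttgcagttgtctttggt

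PPBP has 2 matches and CLEC1B and GYPB have 1 each. Counted on both strands, AGATAA occurred in 3628 of 35116 promoters of this length (10.3%) and in 742 of the 12463 tested genes that had a promoter sequence (5.95%). It occurred in 3 of 16 megakaryocyte and platelet genes (18.8%), 8 of 17 erythroid genes (47.1%) and 1 of 10 eosinophil genes (10%) that were tested and had a sequence. A match is a description of the letters in this window, not a site of binding.

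Endothelial genes, which mark the vessel-lining cells from which blood progenitors emerge in development, included 1 higher and 9 lower among 23 tested. The median was -0.62, or -0.38 with a member at 0 counts set to its bound, and 4 were lower without UT day 16 replicate 2. KDR, a receptor for vascular endothelial growth factor, was at 28.2 and 25.4 CPM in UT day 16 libraries, against 128 and 117 CPM in UT day 14 libraries (log2 fold change -2.19, SE 0.31, adjusted p = 8.5e-05). PECAM1, an adhesion molecule of endothelium and of platelets, had a log2 fold change of -1.06. Of 9 pluripotency genes, 1 was higher and 2 lower. LIN28A, an RNA-binding protein of stem cells and early embryonic tissue, was one of the lower genes, at 5.81 and 5.98 CPM in UT day 16 libraries, against 25.8 and 36.9 CPM in UT day 14 libraries (log2 fold change -2.41).

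Eosinophil granule and receptor genes rose. Of 14 tested, 10 were higher and 0 lower, with a median of 0.97, whereas with library sizes alone 1 was higher and 2 lower and the median was -0.15. PRG2, the major basic protein of the eosinophil granule, was at 12727 and 11730.0 CPM in UT day 16 libraries, against 5661 and 6418 CPM in UT day 14 libraries (log2 fold change 1.02, SE 0.19, adjusted p = 0.00036, but -0.11 with library sizes alone). EPX, eosinophil peroxidase, was at 3588 and 3126 CPM in UT day 16 libraries, against 1589 and 1072 CPM in UT day 14 libraries (log2 fold change 1.34, SE 0.22). IL5RA, the receptor for the eosinophil growth factor interleukin 5, was at 82.7 and 83.7 CPM in UT day 16 libraries, against 34.9 and 29.4 CPM in UT day 14 libraries (log2 fold change 1.37, SE 0.18, adjusted p = 9.6e-06). The UT day 16 libraries lay above both UT day 14 libraries for each of these genes, while 63% of all genes tested had no overlap in either direction.

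ADGRE1, an adhesion receptor of eosinophils in human blood, was at 10.1 and 8.58 CPM in UT day 16 libraries, against 1.67 and 1.14 CPM in UT day 14 libraries (log2 fold change 2.73, SE 0.28, adjusted p = 8.8e-07). RNASE2, the eosinophil-derived neurotoxin, had a log2 fold change of 1.42, and its call was lost when only the groups compared were fitted (adjusted p = 0.0504). SIGLEC8, an inhibitory lectin of eosinophils and mast cells, had a log2 fold change of 1.13. CCL24, an eosinophil-attracting chemokine known as eotaxin-2, was at 45.0 and 36.8 CPM in UT day 16 libraries, against 9.79 and 8.03 CPM in UT day 14 libraries (log2 fold change 2.20). In mast cell and basophil genes, 3 of 13 were higher and 3 lower, with a median of 0.41. These are 23.1% each, against 13.8% and 15.6% over all genes. KIT, described above, was one of the lower members, at 8.51 and 6.7 CPM in UT day 16 libraries, against 24.4 and 25.5 CPM in UT day 14 libraries. HDC, the enzyme that makes histamine, was at 653 and 533 CPM in UT day 16 libraries, against 239 and 136 CPM in UT day 14 libraries (log2 fold change 1.66). The mast cell tryptase TPSB2, whose near-identical copy makes its count uncertain, had a log2 fold change of 1.85.

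Later neutrophil granule and mature neutrophil genes included 8 higher and 1 lower among 25 tested, with a median of 0.65, whereas with library sizes alone 3 were higher and 8 lower and the median was -0.47. Between 5 and 8 were higher with any 1 of the 4 libraries left out, 5 of them without UT day 14 replicate 2. CEACAM8, a surface protein of granulocytes stored in specific granules, was at 3.33 and 2.27 CPM in UT day 16 libraries, against 0.134 and 0.0501 CPM in UT day 14 libraries (log2 fold change 4.88, SE 0.68). LTF, lactoferrin of the specific granule, was at 3.81 and 2.39 CPM in UT day 16 libraries, against 0.535 and 0.885 CPM in UT day 14 libraries (log2 fold change 2.12). Both genes were thus low in all 4 libraries. MMP25, a membrane-bound metalloproteinase of neutrophils, was at 55.7 and 47.9 CPM in UT day 16 libraries, against 17.5 and 15.8 CPM in UT day 14 libraries (log2 fold change 1.64, SE 0.17, adjusted p = 8.8e-07). LYZ, lysozyme, went the other way, with 164 and 145 CPM in UT day 16 libraries, against 384 and 250 CPM in UT day 14 libraries (log2 fold change -1.04).

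Of 29 monocyte and macrophage genes, 5 were higher (17.2%) and 4 lower (13.8%), which is close to the 13.8% and 15.6% over all genes. The number higher was 2 without UT day 16 replicate 2 and 1 without UT day 14 replicate 2, and the number lower was 1 without UT day 14 replicate 1. ITGAX, an integrin of myeloid cells, was at 62.1 and 45.9 CPM in UT day 16 libraries, against 16.3 and 9.51 CPM in UT day 14 libraries (log2 fold change 2.06). F13A1, a coagulation factor subunit found in monocytes and platelets, was at 39.7 and 49.3 CPM in UT day 16 libraries, against 135 and 122 CPM in UT day 14 libraries (log2 fold change -1.53). Of 7 subunits of the NADPH oxidase, the enzyme of the phagocyte oxidative burst, 3 were higher and 0 lower, whereas with library sizes alone 0 were higher and 5 lower. CYBB, its catalytic subunit, was at 183 and 212 CPM in UT day 16 libraries, against 120.1 and 107 CPM in UT day 14 libraries (log2 fold change 0.80, but -0.32 with library sizes alone). NCF4, a cytosolic subunit, had a log2 fold change of 0.65, but -0.47 with library sizes alone. Of 22 MHC class II and dendritic cell genes, 1 was higher and 0 lower, and without UT day 16 replicate 2 these were 1 and 5. Of 17 lymphoid genes, 2 were higher and 0 lower, with a median of -0.29, or 0 with a member at 0 counts set to its bound. IL7R, the interleukin 7 receptor, which is known from lymphoid cells, was at 38.4 and 81.8 CPM in UT day 16 libraries, against 24.1 and 18.3 CPM in UT day 14 libraries (log2 fold change 1.5).

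Myeloid transcription factors included 11 higher and 4 lower among 35 tested, with a median of 0.31, whereas with library sizes alone 1 was higher and 24 lower. Without UT day 16 replicate 2, 6 were higher and 1 lower, 7 were higher without UT day 16 replicate 1 or UT day 14 replicate 1, and 2 were lower without UT day 14 replicate 2. RUNX2 was at 10.2 and 9.86 CPM in UT day 16 libraries, against 2.11 and 2.92 CPM in UT day 14 libraries (log2 fold change 1.99, SE 0.28, adjusted p = 2.1e-05). CEBPB, a factor of granulocyte and macrophage differentiation, was at 126 and 102 CPM in UT day 16 libraries, against 53.5 and 47.3 CPM in UT day 14 libraries (log2 fold change 1.17). KLF2, a zinc finger factor of myeloid and endothelial cells, had a log2 fold change of 1.33.

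The levels of 6 of these genes over the whole culture show where the untreated step sits. In the UT arm, PF4 was at 322 and 285 CPM on day 10, 845 and 759.7 CPM on day 12, 26.2 and 32.6 CPM on day 18, and 7.81 and 13.8 CPM on day 20. Both UT day 14 libraries already lay below both UT day 12 libraries, and the UT day 16 libraries lay far below these. RHAG, at 125 and 134 CPM on day 12 and 33.7 and 33.2 CPM on day 14, had already fallen before. PRG2 was at 6.91 and 5.67 CPM on day 10, 635 and 509 CPM on day 12, 25193 and 19946 CPM on day 18, and 17606 and 14368 CPM on day 20. Its increase over days 10 to 14 preceded the untreated step described here. Neighbouring intervals of the UT arm, each of which shares libraries with the next, called 1650 genes for day 12 against day 10 (8.2%), 6672 for day 14 against day 12 (33.2%), 2159 for day 18 against day 16 (10.7%) and 956 for day 20 against day 18 (4.75%).

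**Figure D4:**
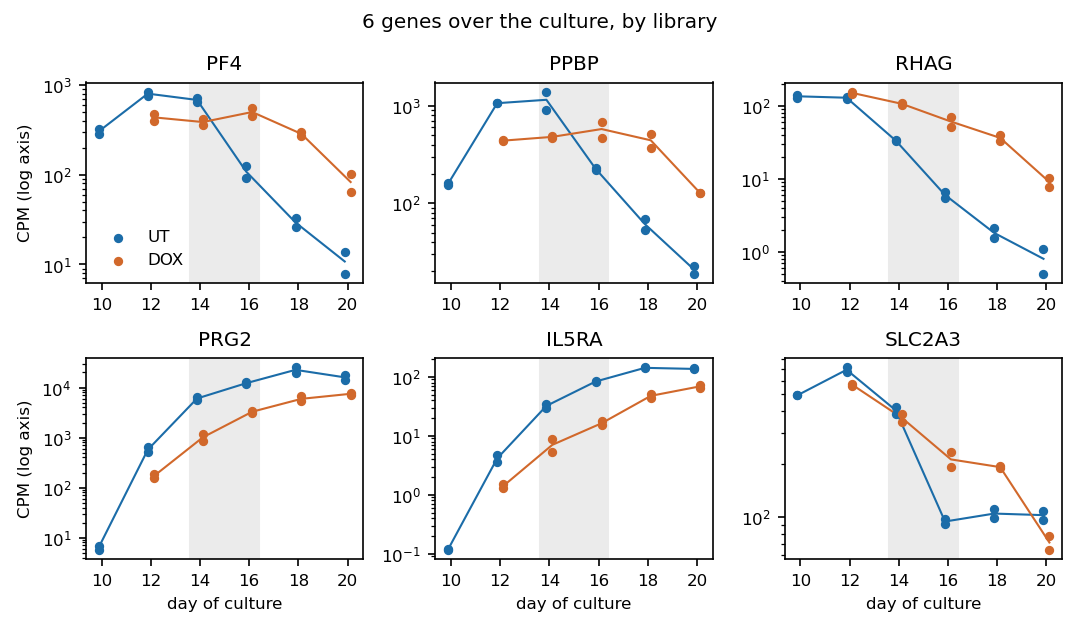
Levels of PF4, PPBP, RHAG, PRG2, IL5RA and SLC2A3 over days 10 to 20 in CPM on log axes, with 1 point per library, lines through the group means, and the interval between days 14 and 16 shaded. PF4 is at 124 and 92.5 CPM in UT day 16 libraries, against 649 and 716 CPM in UT day 14 libraries, and at 451 and 550.4 CPM in DOX day 16 libraries.

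Genes of glucose use and of the response to low oxygen fell together. Of 24 glycolysis genes, 1 was higher and 15 lower, with a median of -0.66, and 11 to 14 were lower with any 1 library left out. Of 20 hypoxia-responsive genes, 1 was higher and 12 lower, with a median of -1.06. SLC2A3, the glucose transporter GLUT3, was at 96.8 and 90.8 CPM in UT day 16 libraries, against 385 and 426 CPM in UT day 14 libraries (log2 fold change -2.11, SE 0.13, adjusted p = 4.8e-09). EGLN3, an oxygen-sensing prolyl hydroxylase, was at 15.0 and 13.4 CPM in UT day 16 libraries, against 60 and 78.7 CPM in UT day 14 libraries (log2 fold change -2.29, SE 0.16). BNIP3, a mitochondrial outer membrane protein that takes part in mitophagy, was at 16.4 and 14.0 CPM in UT day 16 libraries, against 48.4 and 71.7 CPM in UT day 14 libraries (log2 fold change -1.99). The log2 fold changes were -1.85 for the transporter SLC2A1 and -1.86 for PFKFB4, which sets the level of an activator of glycolysis. Hexokinases, which start glycolysis, split by isoform. HK2 was at 27.1 and 20.3 CPM in UT day 16 libraries, against 76.3 and 76.7 CPM in UT day 14 libraries (log2 fold change -1.69), and HK3, the hexokinase of myeloid cells, was the 1 higher gene of the glycolysis list, at 66.8 and 50 CPM in UT day 16 libraries, against 20.2 and 11.9 CPM in UT day 14 libraries (log2 fold change 1.86).

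Of 27 genes for cholesterol and fatty acid synthesis, 2 were higher and 13 lower, with a median of -0.45, and 8 were lower without UT day 16 replicate 2. FADS2, a fatty acid desaturase, was at 52.6 and 42.4 CPM in UT day 16 libraries, against 158 and 123 CPM in UT day 14 libraries (log2 fold change -1.56). INSIG1, a sterol sensor of the endoplasmic reticulum, was at 102 and 88.4 CPM in UT day 16 libraries, against 253 and 266 CPM in UT day 14 libraries (log2 fold change -1.45). SQLE, a rate-controlling enzyme of cholesterol synthesis, had a log2 fold change of -1.19. CPT1A, which admits long-chain fatty acids to mitochondria for oxidation, was at 257 and 279.7 CPM in UT day 16 libraries, against 109.6 and 137 CPM in UT day 14 libraries (log2 fold change 1.12, but 0 with library sizes alone). Of 28 genes for nucleotide and one-carbon synthesis, 2 were higher and 14 lower, with a median of -0.46, and 8 were lower without UT day 16 replicate 2. TYMS, thymidylate synthase, was at 63.7 and 54.8 CPM in UT day 16 libraries, against 130.5 and 143 CPM in UT day 14 libraries (log2 fold change -1.21, SE 0.13). PAICS, an enzyme of purine synthesis, had a log2 fold change of -0.99.

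Cell cycle genes did not move as a block. Of 32 mitosis genes, 2 were higher and 17 lower, with a median of -0.42, and 7 were lower without UT day 16 replicate 2 and 9 without UT day 14 replicate 2. CCNB1, the mitotic cyclin B1, was at 27.0 and 24.2 CPM in UT day 16 libraries, against 59.3 and 73.1 CPM in UT day 14 libraries (log2 fold change -1.37, SE 0.19). BUB1, a kinase of the spindle checkpoint, had a log2 fold change of -1.17. TOP2A, the topoisomerase that untangles replicated chromosomes, went the other way, with 527 and 637 CPM in UT day 16 libraries, against 207 and 277 CPM in UT day 14 libraries (log2 fold change 1.27, SE 0.18, adjusted p = 2.9e-05). MKI67, the proliferation marker Ki-67, was at 206 and 211 CPM in UT day 16 libraries, against 189 and 163 CPM in UT day 14 libraries (log2 fold change 0.25, adjusted p = 0.29, but -0.88 with library sizes alone). Of 36 DNA replication genes, 4 were higher and 13 lower, and 1 was higher and 6 lower without UT day 16 replicate 2. PCNA, the sliding clamp of DNA polymerase, was at 86.2 and 49.8 CPM in UT day 16 libraries, against 140.1 and 166 CPM in UT day 14 libraries (log2 fold change -1.17). RRM2, a subunit of ribonucleotide reductase, had a log2 fold change of -0.87.

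Of 40 cytosolic ribosomal proteins, 14 were higher and 6 lower, with a median of 0.10, whereas with library sizes alone 0 were higher and 37 lower. Without UT day 16 replicate 2 the numbers were 13 higher and 2 lower. RPL35 was at 1003 and 1121 CPM in UT day 16 libraries, against 528 and 464 CPM in UT day 14 libraries (log2 fold change 1.10, but -0.02 with library sizes alone). RPL30 was at 169.5 and 159 CPM in UT day 16 libraries, against 389 and 390.1 CPM in UT day 14 libraries (log2 fold change -1.25). RPS6 had a log2 fold change of 0.51, but -0.61 with library sizes alone, and lost its call when only the groups compared were fitted (adjusted p = 0.0625). Members of 1 complex thus moved in both directions. Processed pseudogenes of ribosomal proteins can share reads with their parent genes.

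Among NF-kB feedback, cytokine and chemokine genes, 9 of 33 were higher and 4 lower, with a median of 0.26, whereas with library sizes alone 2 were higher and 21 lower. On the TMM scale the shares were 27.3% and 12.1%, against 13.8% and 15.6% over all genes. Without UT day 14 replicate 2, or without UT day 16 replicate 1, 5 were higher. BIRC3, an inhibitor of apoptosis induced by NF-kB, was at 72.6 and 72.6 CPM in UT day 16 libraries, against 14.2 and 12.4 CPM in UT day 14 libraries (log2 fold change 2.45, SE 0.15, adjusted p = 4.8e-09). CCL22, a chemokine of macrophages and dendritic cells, had a log2 fold change of 1.51. CXCL5 and CXCL6, neighbouring neutrophil-attracting chemokines, were low and fell. CXCL5 was at 0.355 and 0.519 CPM in UT day 16 libraries, against 3.98 and 4.66 CPM in UT day 14 libraries (log2 fold change -3.29), and CXCL6 had a log2 fold change of -3.42. Of 28 interferon-stimulated genes, 1 was higher and 9 lower, with a median of -0.60, and 7 to 10 were lower with any 1 library left out. IFIT1, an antiviral protein that binds foreign RNA caps, was at 1.6 and 2.35 CPM in UT day 16 libraries, against 6.50 and 11.1 CPM in UT day 14 libraries (log2 fold change -2.15). USP18, which dampens interferon signalling, had a log2 fold change of -1.80.

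Genes of cell death and stress moved in both directions. In the BCL2 and caspase list 21.7% were higher and 34.8% lower, against 13.8% and 15.6% over all genes. Of 23 members of the BCL2 and caspase list, 5 were higher and 8 lower, and 2 to 3 were higher without UT day 14 replicate 2 or without either UT day 16 library. The survival factor MCL1 had a log2 fold change of -0.74. DDIT3, a transcription factor of the unfolded protein and amino acid responses, was at 28.8 and 28.5 CPM in UT day 16 libraries, against 8.64 and 10.4 CPM in UT day 14 libraries (log2 fold change 1.59, SE 0.17, adjusted p = 1.3e-06). Its list of 28 genes had 8 higher and 7 lower members, and 5 higher without UT day 14 replicate 2 or without UT day 16 replicate 1. Of the cytosolic chaperones, HSP90AA1 had a log2 fold change of 1.36 and HSPA8 one of -0.82. Of 22 autophagy genes, 2 were higher and 9 lower, and 4 were lower without UT day 16 replicate 2. GABARAP, which is coupled to the autophagosome membrane, was at 428 and 341 CPM in UT day 16 libraries, against 131 and 136 CPM in UT day 14 libraries (log2 fold change 1.53), while ATG3, an enzyme of that coupling, had a log2 fold change of -1.33.

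MALAT1, a long RNA retained in the nucleus, took 3.95% and 7.16% of the counts without MT- genes in UT day 16 libraries, against 0.304% and 0.615% in UT day 14 libraries. Its level was 24796 and 46490.4 CPM in UT day 16 libraries, against 1665 and 3499 CPM in UT day 14 libraries (log2 fold change 3.79, SE 0.44, adjusted p = 2.3e-05). MALAT1 ends in a triple helix instead of an ordinary polyA tail. Of the 20 nuclear-retained and small RNA host genes tested, 6 were higher and 2 lower, with a median of 0.30, and 3 were higher without UT day 14 replicate 1 or without UT day 16 replicate 2. The MALAT1 share, the MT- share and the pseudogene share were all higher in both UT day 16 libraries than in both UT day 14 libraries. The number of detected genes was lower, as were the counts without MT- genes. Most of the pseudogene counts in UT day 16 libraries were from copies of MT- genes, which took 2.32% and 2.53% of the counts without MT- genes in UT day 16 libraries, against 0.379% and 0.397% in UT day 14 libraries. Their part in the results above was not tested.

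The remaining lists had members called in both directions or few calls, and their counts are given for completeness. Over all genes 13.8% were higher and 15.6% lower, and no list was tested against these shares. For example, the shares were 25.7% and 22.9% in lysosome genes, 19.4% and 9.68% in immediate early and heat shock genes, and 14.3% and 23.8% in lipid handling genes. The MYC network, made of MYC partners and antagonists, had 2 higher and 5 lower of 13, and growth genes known as MYC targets 8 higher and 12 lower of 32. Ribosome biogenesis genes had 8 higher and 9 lower of 37, and translation factors 6 higher and 7 lower of 26. CDK inhibitors and p53 targets had 6 higher and 7 lower of 26, and replication-dependent histone genes, whose mature mRNAs lack a polyA tail, 0 higher and 4 lower of 22. Lysosome genes had 9 higher and 8 lower of 35, mitophagy and mitochondrial dynamics genes 3 higher and 6 lower of 18, mitochondrial biogenesis regulators 3 higher and 1 lower of 11, and mitochondrial RNA processing genes 1 higher and 6 lower of 22. Neutrophil primary granule genes had 4 higher and 3 lower of 16, and lipid handling genes 3 higher and 5 lower of 21. Immediate early and heat shock genes had 6 higher and 3 lower of 31, iron and metallothionein genes 4 higher and 5 lower of 20, and growth factor receptors 5 higher and 5 lower of 23. In all of these lists except MYC targets and growth factor receptors, leaving out 1 of the 4 libraries moved a count by more than 1.5-fold, and each of the 4 did so for several lists.

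Among called genes of average log2 CPM 1 or more, the largest changes outside the lists included genes that differ between the UT day 16 replicates. APOBEC3A, a cytidine deaminase of myeloid cells, was at 8.51 and 5.43 CPM in UT day 16 libraries, against 0.518 and 0.0167 CPM in UT day 14 libraries (log2 fold change 4.69, SE 0.84, adjusted p = 0.00089). It was at 0 CPM in the DOX day 14 and DOX day 16 libraries, and at 2.8 and 9.91 CPM in DOX day 18 libraries. Its change thus falls at the split of libraries by 0-count genes described above and cannot be told apart from it. GREM1, a secreted antagonist of bone morphogenetic proteins known from stromal cells, was at 5.19 and 14.2 CPM in UT day 16 libraries, against 0.485 and 1.22 CPM in UT day 14 libraries (log2 fold change 3.50). ANKRD36C, which has close copies and an uncertain count, was at 55.6 and 97.9 CPM in UT day 16 libraries, against 4.46 and 9.43 CPM in UT day 14 libraries (log2 fold change 3.47). MAN1A2, a mannosidase of the Golgi apparatus, was named for its difference between arms and had a log2 fold change of 2.03 in the untreated step.

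The changes ran with base composition. Protein-coding genes called higher had a median GC content of 53.2% in their longest transcript (2214 genes), genes called lower 43.8% (2860 genes) and genes not called 49.6% (9724 genes). Over 5 groups of protein-coding genes of about equal size, ordered by GC content, median log2 fold changes were -0.33, -0.20, -0.03, 0.06 and 0.21 from the lowest to the highest GC. An offset per library and GC bin, chosen after seeing the data, gave 5539 calls, 2970 higher and 2569 lower. Under it the megakaryocyte and platelet list still had 0 higher and 22 lower, the eosinophil list 10 higher and 0 lower, and the oxidative phosphorylation list 0 higher and 17 lower. With this offset, no named gene lost or gained its call.

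The same days were then compared in the DOX arm, which shares no library with the untreated step. DOX day 16 against DOX day 14 called 2749 genes (13.7%), with 1097 higher (5.45%) and 1652 lower (8.21%). This number rested on single libraries, being 555 without DOX day 14 replicate 2, 942 without DOX day 16 replicate 2, 1232 without DOX day 16 replicate 1 and 1708 without DOX day 14 replicate 1. The difference of the step between arms, UT minus DOX, was tested as 1 contrast and was called for 1750 genes (8.7%), of which 854 were higher (4.25%) and 896 lower (4.45%). It was called for 828 genes without UT day 16 replicate 2, 1050 without UT day 14 replicate 2, 1065 without DOX day 14 replicate 1, 700 without DOX day 14 replicate 2 and 727 without DOX day 16 replicate 2. MT- genes took 21% and 19.5% of counts in DOX day 16 libraries, against 9.02% and 13.2% in DOX day 14 libraries.

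Megakaryocyte and erythroid genes differed between the arms in this interval. In megakaryocyte and platelet genes the difference was called higher for 0 and lower for 15 of 24, with a median of -1.31, and in DOX day 16 against DOX day 14 the list had 2 higher and 5 lower genes and a median of -0.26. PF4 was at 451 and 550.4 CPM in DOX day 16 libraries, against 417 and 357 CPM in DOX day 14 libraries, and its difference between arms was -3.03 (adjusted p = 2.5e-05). The difference was -2.62 for PPBP and -2.47 for CD9. In erythroid genes the difference was called higher for 1 and lower for 10 of 32, with -2.26 for HBG2 and -1.67 for RHAG. Eosinophil genes rose in both arms, with 8 of 14 higher in DOX day 16 against DOX day 14 (median 1.06), and the difference was called higher for 2 and lower for 1. PRG2 was at 3150.5 and 3416 CPM in DOX day 16 libraries, against 1192 and 835 CPM in DOX day 14 libraries.

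For the mitochondrially encoded mRNAs the difference was called higher for 13 of 13, with a median of 2.19 and with 2.10 for MT-CO1. For nuclear oxidative phosphorylation subunits it was called lower for 13 of 29, with -1.24 for SDHB and -1.17 for SDHD. Hypoxia-responsive genes fell in both arms, with 12 of 20 lower in DOX day 16 against DOX day 14, and the difference was called lower for 2 of 20. EGLN3 was one of these genes (-1.46), and the glucose transporter SLC2A3 had a difference of -1.32. Cytosolic ribosomal proteins had 24 higher and 0 lower of 40 in DOX day 16 against DOX day 14, and the difference was called lower for 6. CYBB had opposite calls in the arms, with a log2 fold change of 0.80 in the untreated step and -0.59 in DOX day 16 against DOX day 14 (difference 1.39, adjusted p = 0.00026). With library sizes alone the differences of CYBB and TOP2A were 0.44 and 0.35 and were not called. The difference was 2.07 for BIRC3, 1.31 for TOP2A, -1.54 for INSIG1, -1.25 for CCNB1, -1.16 for TYMS, -1.32 for PCNA and -2.76 for CXCL5. For MALAT1 it was 2.32 (adjusted p = 0.021), and this call was lost with any 1 of 6 of the 8 libraries left out, UT day 14 replicate 1, UT day 16 replicate 2 and each of the 4 DOX libraries, with values between 1.80 and 2.64.

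Over days 16 to 20 the DOX arm passed through a similar range of MT- shares, with 55.3% and 58.8% in DOX day 20 libraries, against 21% and 19.5% in DOX day 16 libraries. DOX day 20 against DOX day 16 called 7700 genes (38.3%), 3450 higher (17.2%) and 4250 lower (21.1%). Of the 2771 genes higher in the untreated step, 2153 were also higher there, which is 77.7% of the untreated step and 62.4% of the later DOX list, and 5 were lower. Of the 3137 lower genes, 2529 were also lower, which is 80.6% and 59.5% of the 2 lists, and 7 were higher. Against DOX day 16 over DOX day 14 the shared numbers were 656 higher genes (23.7% and 59.8%) and 820 lower genes (26.1% and 49.6%), with 52 and 40 called in the opposite direction. The DOX intervals share the DOX day 16 libraries and are not independent of each other. The split by 0-count genes also separates DOX day 20 from DOX day 16, as it does UT day 16 from UT day 14.

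**Figure D5:**
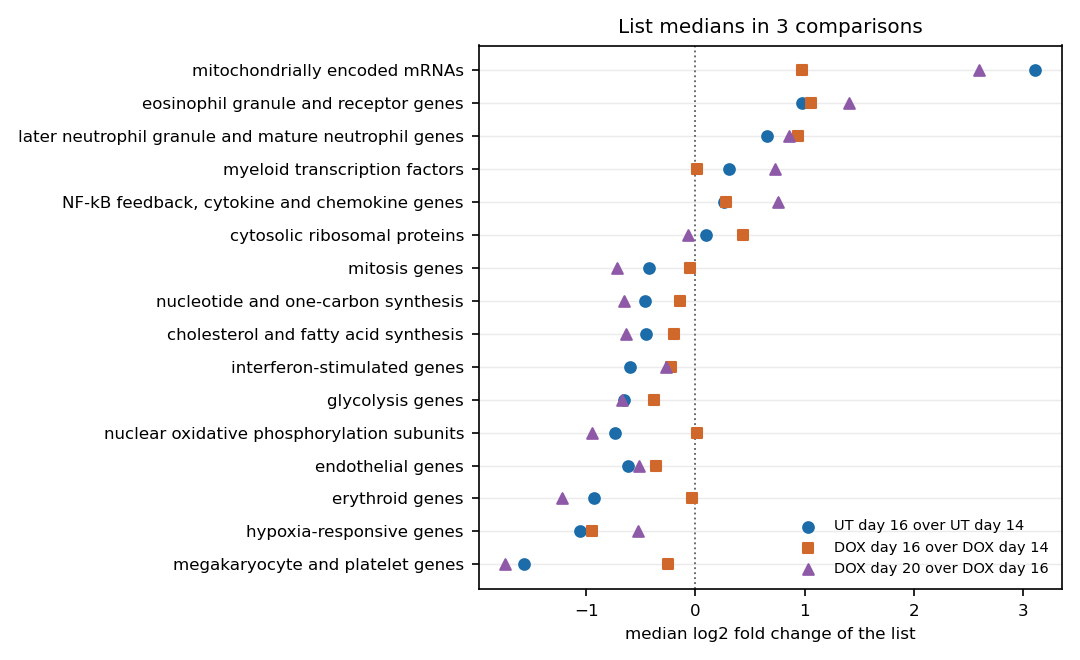
Median log2 fold change of 16 gene lists in UT day 16 over UT day 14 (circles), DOX day 16 over DOX day 14 (squares) and DOX day 20 over DOX day 16 (triangles). The megakaryocyte and platelet list has medians of -1.57, -0.26 and -1.74 in this order.

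By list, DOX day 20 against DOX day 16 had 0 higher and 21 lower megakaryocyte and platelet genes (median -1.74), 0 higher and 19 lower erythroid genes (-1.22), 10 higher and 0 lower eosinophil genes (1.41) and 0 higher and 25 lower oxidative phosphorylation subunits (-0.95). For PF4 the log2 fold change was -2.66 in the untreated step and -2.59 in the later DOX interval. For BIRC3 it was 2.45 in the untreated step and 2.12 in the later DOX interval, and for INSIG1 -1.45 and -1.48 in this order. Lists also differed between the 2 intervals, without a test of that difference. MHC class II and dendritic cell genes had 1 higher and 0 lower of 22 in the untreated step, and 1 higher and 11 lower in the later DOX interval. Myeloid transcription factors had 11 higher and 4 lower of 35 in the untreated step, and 22 higher and 2 lower in the later DOX interval.

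The position of each library on the line from the mean of UT day 12 (set to 0) to the mean of UT day 18 (set to 1), over all tested genes without MT- genes, summarised the untreated step. The ends of this line lie on opposite sides of the split by 0-count genes. They also differ in counts without MT- genes, with 30268143 and 36244086 in UT day 12 libraries, against 9190113 and 15124681 in UT day 18 libraries. The part of the split and of depth in the positions was not tested. Positions were 0.704 and 0.694 in UT day 16 libraries, against 0.321 and 0.353 in UT day 14 libraries, a mean difference of 0.362. In the DOX arm they were 0.135 and 0.096 on day 14, 0.294 and 0.295 on day 16, 0.499 and 0.532 on day 18, and 0.675 and 0.755 on day 20. The DOX day 16 libraries thus lay below both UT day 14 libraries. The DOX day 20 libraries lay on either side of the UT day 16 libraries on this line, but with a prior count of 0.5 the positions were 0.664 and 0.638 in UT day 16 libraries and 0.652 and 0.710 in DOX day 20 libraries, so that 1 of the DOX day 20 libraries lay between them.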

How the data were processed

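PolyA RNA was sequenced in 22 libraries, and the deposited values are estimated counts per gene made by the authors, not normalised, of which 88.3% were whole numbers. Per the submitters' processing notes, Trim Galore 0.6.5, STAR and Salmon were used with hg38. The other versions, annotation release, strand setting and filters are not given in the sources used here. Counts were rounded to integers. The table has 60240 genes, 23698 of them without a count in any library. Gene positions and types came from GENCODE 29, which matched 58020 identifiers, and promoters from RefSeq.

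All 22 libraries in 11 groups of 2 were fitted together in edgeR 4.0.16 (R 4.3.3) by a quasi-likelihood model with filterByExpr (minimum count 10), TMM scaling and Benjamini-Hochberg adjustment. It had 11 residual degrees of freedom and a common biological coefficient of variation of 0.184. Replicates of a group differed by more than sampling noise (chi-square per degree of freedom 33.5 for UT day 16 and 100 for UT day 14). CPM are TMM-scaled, so their sums differ between libraries. A floor of 3 counts covers counting error only. On simulated data for the untreated step, with 19293 genes, 50 genes were changed at each fold. Of these, 4% of 1.5-fold, 32% of 2-fold and 100% of 4-fold and 8-fold changes were recovered, and 3 of 19093 unchanged genes were called.

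The 47 gene lists were written by hand and share some genes. Members, lists and comparisons were chosen with earlier results of these data known, so their counts and medians describe and do not test. Genes eligible for naming were MYC, the MT- mRNAs and rRNAs, called genes among the 12 highest and 12 lowest changes in the untreated step (average log2 CPM 1 or more), the 6 highest and 6 lowest called differences between arms, and, per list, at most 5 called members ranked by size of change plus the 2 members highest in CPM. The text gives 110 genes, and a few others are not reported here. Most genes that met the rule but lost their call with 1 library left out were not named, which was decided after seeing the data, so the stability of the named genes says nothing about the rest. Clone, locus, antisense, pseudogene and sex-linked marker names were not used. Alternatives were other scalings and filters, limma-voom (limma 3.58.1), DESeq2 1.42.0, fits on fewer groups, a replicate block and leaving out each library. Figures used matplotlib 3.10.9 with pandas 2.3.3 and numpy 2.4.6 (Python 3.11.15).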

Additional observations from a re-analysis of the deposited data

Results flagged for a closer look

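For 66 of the 110 named genes the day 14 to 16 step differed between the arms by a test of the difference itself (edgeR's quasi-likelihood test of UT minus DOX, adjusted p under 0.05 over all genes). The difference was higher for 26 and lower for 40, on the log2 scale, and 8.7% of all genes tested had such a difference. The 110 genes were chosen from these same data, some of them by this difference, so their share cannot be weighed against that of all genes. The values of 19 of these genes are given here. Among genes of the megakaryocyte, platelet and erythroid lineages, the difference was -3.03 for PF4, -2.62 for PPBP, -2.47 for CD9, -2.26 for HBG2 and -1.67 for RHAG. Among genes of mitochondria and metabolism, it was 2.10 for MT-CO1, -1.24 for SDHB, -1.17 for SDHD, -1.32 for SLC2A3, -1.46 for EGLN3 and -1.54 for INSIG1. Among cell cycle and nucleotide genes, it was 1.31 for TOP2A, -1.32 for PCNA, -1.16 for TYMS and -1.25 for CCNB1. It was 2.07 for BIRC3, 1.39 for CYBB, -2.76 for CXCL5 and 2.32 for MALAT1. The split of libraries by 0-count genes lies between UT day 16 and all other libraries of this contrast.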

How the results depend on the processing

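For UT day 16 against UT day 14, the number of called genes (5908) was 5877 with DESeq2 size factors, 5879 without a filter, 5899 with a filter of 1 CPM, 6765 with limma-voom, 6750 with DESeq2, 4726 with only the groups compared and 4769 with UT libraries only. With library sizes alone it was 12425 (351 higher, 12074 lower), and with MT- genes removed and library sizes alone 1772 genes were higher. Leaving out 1 of the 4 libraries gave 3900 to 4534 calls, 1835 to 2096 higher and 2065 to 2493 lower, and 3827 to 4449 calls with MT- genes removed. For the difference between arms (1750), library sizes alone gave 8570, DESeq2 2963, and leaving out 1 library 700 to 1625. DOX day 16 against DOX day 14 gave 555 to 1708 and DOX day 20 against DOX day 16 gave 5299 to 6925 with 1 library left out, and 11964 for the later interval with library sizes alone. The difference in MT- share was 37.3 to 44.7 points and that in position 0.346 to 0.378 with 1 library left out, and the position difference was 0.391 over the most variable genes only. With library sizes alone, log2 fold changes in UT day 16 against UT day 14 changed sign or reached 0 for TOP1MT (-0.21), PRG2 (-0.11), CYBB (-0.32), NCF4 (-0.47), MKI67 (-0.88), RPL35 (-0.02), RPS6 (-0.61) and CPT1A (0), through the shift of -1.15 in the median of all genes. None of these genes changed sign with MT- genes removed and library sizes alone, where values ran from 0.05 for MKI67 to 0.93 for CPT1A. Without UT day 16 replicate 2, COL3A1 (-1.66), COL1A1 (-0.35) and FN1 (-1.78) changed sign, and over the 4 libraries left out in turn their highest values were 6.29, 5.85 and 5.48. The cause was not tested.

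Replicate numbers are shared by the groups. Deviations of same-numbered UT day 14 and UT day 16 libraries from their group means correlated with r = 0.083 over genes. This value covers only these libraries and cannot show that replicate number carries nothing for single genes. TOP2A was higher in replicate 2 than in replicate 1 of every group, with 207 and 277 CPM in UT day 14 replicates 1 and 2. It was at 527 and 637 CPM in those of UT day 16 and 648 and 746 CPM in those of DOX day 20. With replicate number as a block, 6435 genes were called for the untreated step, 6387 with MT- genes removed and 2447 for the difference between arms, and no call of a named gene changed. Setting list members at 0 counts in a group to their bound moved list medians by at most 0.29. In simulated data most changes of 2-fold or less were not called. Those data had 50 changed genes at each fold among 19293, whereas 29.4% of genes were called in the untreated step. A smaller changed share makes the Benjamini-Hochberg adjustment stricter, so the recovered shares do not carry over to the untreated step. With 2 libraries per group, a missing call is still no sign that a gene did not change.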
